A study of Mus musculus with 10 samples.

Results

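Transcripts of red cells were measured in mouse lung through 7 genes, namely the alpha globin genes Hba-a1 and Hba-a2, the beta globin genes Hbb-bs and Hbb-bt, and Alas2, Slc4a1 and Bpgm. They were chosen by name as the genes of haemoglobin, of haem synthesis in red cells, of the red cell anion exchanger and of the enzyme that makes 2,3-bisphosphoglycerate. All 7 were found by their Entrez identifiers among the 19204 genes with a value in at least 1 of 10 libraries, and all 7 passed the filter on low counts. The libraries fall into C (n = 3), Hy (n = 4) and HE (n = 3) by their titles. The series title names 3 conditions, wild-type mice, mice with pulmonary hypertension caused by hypoxia, and mice with that disease under aerobic exercise, without spelling out the prefixes, so the group names are kept. Every sample carries the same genotype label, WT, and 1 and the same treatment label, and no sex, age, strain, oxygen level, duration or exercise regimen is given in the sources used here. No label states that each library is a different animal, so the p-values below measure the spread between these libraries, which may be technical.

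Haemoglobin of the adult mouse is a tetramer of alpha and beta globin chains, each holding a haem group. The chains are made in erythroid precursors and in reticulocytes, the young red cells that have lost their nucleus but keep messenger RNA for a short time, and the lung is a tissue rich in blood. Alas2 is the erythroid enzyme for the first step of haem synthesis. Slc4a1 encodes band 3, which exchanges chloride for bicarbonate across the red cell membrane and anchors the membrane skeleton. Bpgm encodes bisphosphoglycerate mutase, whose product lowers the affinity of haemoglobin for oxygen.

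The copies within each globin pair are nearly the same in sequence, which sets what counting can separate. In the GENCODE vM21 transcripts on GRCm38, the coding sequences of Hba-a1 and Hba-a2 are 429 bases long and differ at 1 base, written C381T (counted from 1 at the A of the start codon, Hba-a1 first). Those of Hbb-bs and Hbb-bt are 444 bases long and also differ at 1 base, C417T (Hbb-bs first). Of the stretches of 50 bases in the Hba-a1 coding sequence, 87.1% occur unchanged in Hba-a2, and of those in Hbb-bs, 92.9% occur unchanged in Hbb-bt. The 31 bases around each difference are shown with the differing base in capitals (bases 366 to 396 for the alpha pair and 402 to 432 for the beta pair), since inside the coding sequence only reads over that base tell the copies apart.
Hba-a1: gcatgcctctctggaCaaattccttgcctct
Hba-a2: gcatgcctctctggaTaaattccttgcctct
Hbb-bs: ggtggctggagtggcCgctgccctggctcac
Hbb-bt: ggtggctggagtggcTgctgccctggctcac

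The promoter windows of Hba-a1, Hbb-bs, Hbb-bt, Alas2 and Bpgm are shown as background. That of Hba-a2 is nearly the same as that of Hba-a1, and none was available for Slc4a1. They were added after the levels were seen, and whether their letters bear on those levels was not tested. The 250 bases before each RefSeq transcription start (GRCm38.p6) are printed 5′ to 3′ along the gene's strand, with the letters GATAA, or TTATC on the other strand, in capitals, since GATAA contains the core letters that the erythroid factor GATA1 is known to bind.
Hba-a1, chr11:32283422-32283671, plus strand: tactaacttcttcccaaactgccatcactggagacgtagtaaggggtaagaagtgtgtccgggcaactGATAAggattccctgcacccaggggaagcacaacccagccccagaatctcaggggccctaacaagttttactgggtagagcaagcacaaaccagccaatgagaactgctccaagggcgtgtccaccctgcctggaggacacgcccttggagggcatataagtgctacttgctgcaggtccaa
Hbb-bs, chr7:103827929-103828178, minus strand: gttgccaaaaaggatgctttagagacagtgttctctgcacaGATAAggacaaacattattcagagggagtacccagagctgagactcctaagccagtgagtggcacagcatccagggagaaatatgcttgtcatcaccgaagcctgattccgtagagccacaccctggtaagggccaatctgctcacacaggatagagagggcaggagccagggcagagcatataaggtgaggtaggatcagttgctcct
Hbb-bt, chr7:103813924-103814173, minus strand: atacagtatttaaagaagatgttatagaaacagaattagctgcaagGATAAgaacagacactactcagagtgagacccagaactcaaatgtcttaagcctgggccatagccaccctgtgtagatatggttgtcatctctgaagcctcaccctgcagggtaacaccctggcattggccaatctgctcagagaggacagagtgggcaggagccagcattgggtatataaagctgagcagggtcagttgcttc
Alas2, chrX:150547167-150547416, plus strand: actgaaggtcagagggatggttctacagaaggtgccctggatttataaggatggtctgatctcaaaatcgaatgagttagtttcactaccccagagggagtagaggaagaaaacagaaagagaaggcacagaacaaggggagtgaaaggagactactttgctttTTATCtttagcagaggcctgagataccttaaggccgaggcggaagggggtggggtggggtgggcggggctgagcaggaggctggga
Bpgm, chr6:34476106-34476355, plus strand: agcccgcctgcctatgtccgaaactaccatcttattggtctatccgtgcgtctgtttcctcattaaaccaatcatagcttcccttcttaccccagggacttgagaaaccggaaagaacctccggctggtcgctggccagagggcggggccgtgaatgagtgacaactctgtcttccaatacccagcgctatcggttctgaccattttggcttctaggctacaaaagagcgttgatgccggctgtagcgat

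GATAA (both strands) occurred 1 time in each of the windows of Hba-a1, Hba-a2, Hbb-bs, Hbb-bt and Alas2 and 0 times in that of Bpgm, and 23.0% of 27025 RefSeq promoter windows of the same length hold it. CACCC or GGGTG, letters bound by factors of the KLF family, occurred 2 times for each alpha gene, 1 time for Hbb-bs, 3 times for Hbb-bt, 3 times for Alas2 and 0 times for Bpgm, against 51.3% of all windows with at least 1. CCAAT or ATTGG occurred in all of these windows except that of Alas2 (34.5% of all windows), and TATAA or TTATA in all except that of Bpgm (23.5% of all windows). TATAA and TTATA can share letters, as they do in the Alas2 window, and a match describes letters, not binding. The windows of Hba-a1 and Hba-a2 were identical over the 247 bases they share when offset by 3. Those of Hbb-bs and Hbb-bt were equal at 51.0% of 249 bases at their best single offset. No gaps were allowed, so bases gained or lost in either window lower that value, and the likeness of the beta windows with gaps was not measured.

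Values are CPM (counts scaled to library size) with edgeR's TMM factors, from estimated counts per gene totalling 16560649 (C1) to 17804039 (HE3) per library. The lung markers summed to between 50910 and 127300 CPM and none of the 10 was at 0 in any library. C was tabulated apart, with 18713 valued genes against 17956 in Hy and HE and 17465 in common. That split follows the group, and any difference of C from Hy or HE cannot be told apart from it. Heart muscle transcripts (7 markers, among them Myh6 and Actc1) were present in every library, summing to 1488 CPM in C1, 2317 in Hy4 and 1537 in HE3 and to between 43.5 and 640.8 in the other libraries. Neutrophil markers summed to 1661 CPM in Hy2 and 2972 in Hy4 and to between 162.8 and 399.8 elsewhere.

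Alpha globin varied more within Hy than within C or HE. Hba-a1, the copy that took nearly all alpha counts, was at 1791, 2938 and 2482 CPM in C1, C2 and C3, at 4231, 7078, 31170 and 559 CPM in Hy1 to Hy4, and at 5372, 1350 and 2250 CPM in HE1, HE2 and HE3. Hy3 was the highest of all libraries and Hy4 the lowest, and the groups overlapped. The highest Hy library was 55.7 times the lowest, against 1.64 times in C and 3.98 times in HE. Beside these levels, the heart marker sum was 2317 CPM in Hy4 and 135.1 in Hy3, and the neutrophil sum 2972 and 301.4 CPM, and the part of either in the globin levels was not tested.

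Hba-a2 was at 3.66, 2.65 and 5.12 CPM in C1 to C3, at 17.7, 28.6, 111.2 and 2.80 CPM in Hy1 to Hy4, and at 18.1, 5.44 and 8.49 CPM in HE1 to HE3. The first 3 Hy libraries lay above all of C and Hy4 lay among them, while all HE libraries lay above all C libraries by a narrow margin. Of all alpha counts, Hba-a2 held 0.205% (95% Wilson interval 0.161 to 0.261) in C1, 0.0911% (0.0683 to 0.121) in C2 and 0.206% (0.167 to 0.253) in C3. In Hy that share ran from 0.355% (0.339 to 0.372) in Hy3 to 0.496% (0.372 to 0.66) in Hy4, and in HE from 0.336% (0.301 to 0.375) in HE1 to 0.402% (0.327 to 0.494) in HE2. The share was thus lower in all C libraries than in all others, even in Hy4, where alpha globin was lowest. These intervals cover counting error only, and reads that match both copies are divided by the estimation, so the level of Hba-a2 on its own is uncertain.

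**Figure D1:**
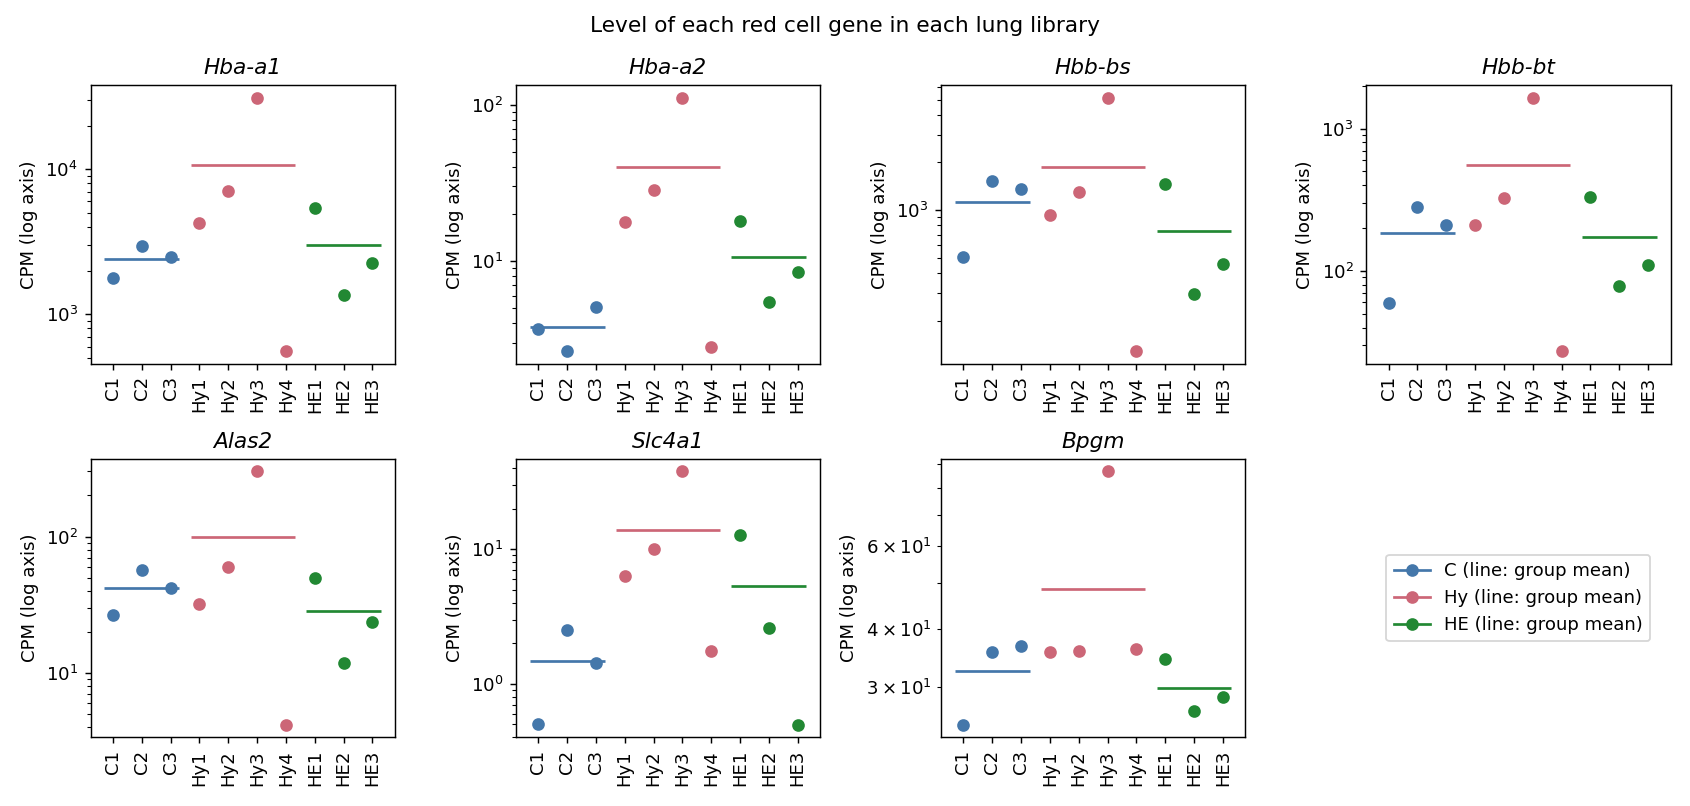
CPM of each of the 7 genes (log axis) in each of the 10 libraries, 1 panel per gene, with points for libraries and lines for group means. Hy3 is the highest point in every panel, and Hy4 is the lowest of the Hy points in every panel except that of Bpgm.

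Beta globin followed the same order inside Hy but not between groups. Hbb-bs was at 507.7, 1531 and 1357 CPM in C1 to C3, at 926.2, 1294, 5141 and 128.7 CPM in Hy1 to Hy4, and at 1472, 297.1 and 457.5 CPM in HE1 to HE3. Hbb-bt was at 59.5, 281.8 and 210.3 CPM in C, at 209.7, 323.2, 1648 and 27.4 CPM in Hy, and at 328 (HE1), 78.0 (HE2) and 109.2 (HE3) CPM. For both genes Hy3 was highest and Hy4 lowest, 39.9-fold apart for Hbb-bs and 60.2-fold for Hbb-bt, and C2 and C3 lay within the range of the other groups. The ratio of Hbb-bt to Hbb-bs, which have equal coding lengths, was 0.117 to 0.184 in C, 0.213 to 0.321 in Hy and 0.223 to 0.263 in HE, with no overlap between C and the others.

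C1 stood apart in which beta globin genes its counts fell on. Hbb-b1 and Hbb-b2 are the adult beta globin genes of another haplotype of the mouse beta globin locus, the diffuse haplotype, whereas Hbb-bs and Hbb-bt are those of the single haplotype, which the reference strain carries. In C1, Hbb-b1 had 599.6 CPM and Hbb-b2 had 70.2 CPM, and together they held 54.1% of the beta globin counts (95% Wilson interval 53.5 to 54.8, 12017 of 22193 counts). In the other 9 libraries Hbb-b1 had at most 7.4 estimated counts, and Hbb-b2 had 0 counts except 1 count in HE3. A count of 0 in HE2, taken at the floor of 3 counts, allows a share of up to 0.0484% of its beta counts, and the 95% Wilson upper limit is 0.062%. Hbb-b2 stood to Hbb-b1 in C1 as 0.117 to 1, and Hbb-bt to Hbb-bs in the same library as 0.117 to 1. The beta level summed over all 4 genes was 1237 CPM in C1, next to 1813 and 1568 CPM in C2 and C3.

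**Figure D2:**
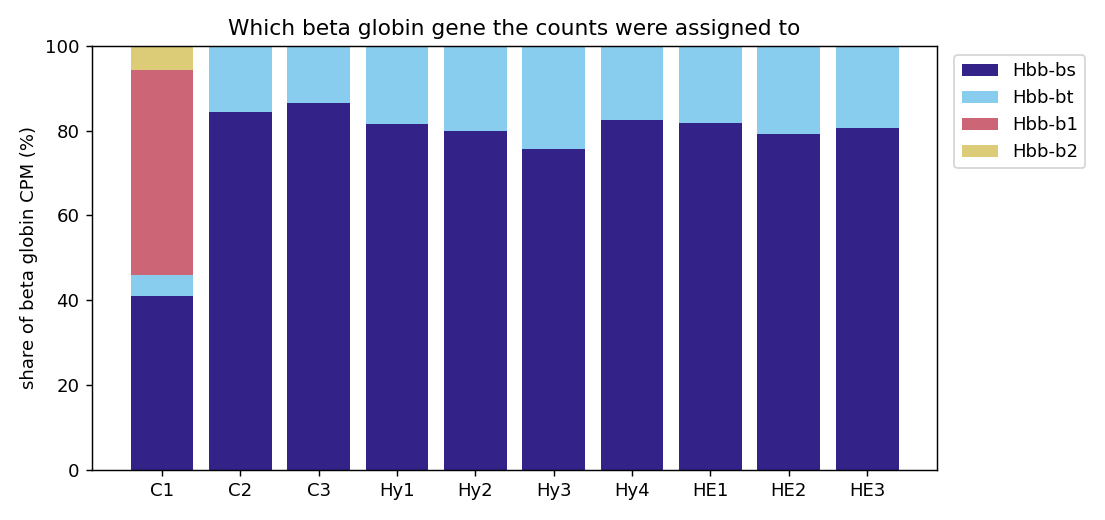
Share (%) of the beta globin CPM assigned to Hbb-bs, Hbb-bt, Hbb-b1 and Hbb-b2 in each library, as stacked bars that sum to 100. Hbb-b1 and Hbb-b2 make up 54.1% of the bar of C1 and are too small to see in the other libraries.

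With all beta genes counted, the ratio of alpha to beta globin per coding length was 1.50, 1.68 and 1.64 in C1 to C3. It was 3.87, 4.55, 4.77 and 3.73 in Hy1 to Hy4 and 3.10, 3.74 and 4.12 in HE1 to HE3. The C libraries lay close together and below every Hy and HE library, although the total globin level of Hy4 was far below that of C and that of Hy3 far above. The ratio is a property within a library and does not depend on how libraries are scaled, but it does depend on how reads of similar copies were counted, and whether that differed between the separate tabulations was not tested. Without Hbb-b1 and Hbb-b2 the ratio in C1 was 3.28, within the range of Hy and HE. The adult globins summed to 3031, 4754 and 4055 CPM in C1 to C3, to 5384, 8723, 38080 and 718.1 CPM in Hy1 to Hy4, and to 7191, 1730 and 2825 CPM in HE1 to HE3. As a share of counts this was 3.6% in Hy3 (95% Wilson interval 3.59 to 3.61) and 0.0684% in Hy4 (0.0671 to 0.0696). In bulk tissue, fewer red cells and less globin RNA per cell cannot be told apart.

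Alas2 tracked the globins. It was at 26.6, 57.3 and 41.9 CPM in C1 to C3, at 32.3, 59.4, 300.3 and 4.18 CPM in Hy1 to Hy4, and at 49.8, 11.8 and 23.6 CPM in HE1 to HE3, so that Hy3 and Hy4 again held the ends of the range, 71.9-fold apart. Set against the summed globins of its own library, Alas2 stayed between 5.82 and 12.1 CPM per 1000 globin CPM over all 10 libraries. It was highest in C (8.79 in C1, 12.1 in C2 and 10.3 in C3), while Hy ran from 5.82 to 7.89 and HE from 6.82 to 8.36, without overlap between C and the others.

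Slc4a1 separated from the globins in C and in HE3. It was at 0.502, 2.50 and 1.42 CPM in C1 to C3 (9, 43 and 25 counts), at 6.33, 10.0, 37.9 and 1.76 CPM in Hy1 to Hy4 (106, 170, 608 and 29 counts), and at 12.8, 2.60 and 0.496 CPM in HE1 to HE3 (223, 43 and 9 counts). HE3 and C1 were lowest and Hy3 highest, and HE spanned a 25.8-fold range. Per 1000 globin CPM, Slc4a1 was at 0.166, 0.527 and 0.350 in C1 to C3 and at 0.176 in HE3, below the 0.996 to 2.45 of the 4 Hy libraries and the 1.78 and 1.51 of HE1 and HE2. In HE3 the heart marker sum was 1537 CPM, against 579 and 341.4 in HE1 and HE2, and its part in the Slc4a1 level was not tested.

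**Figure D3:**
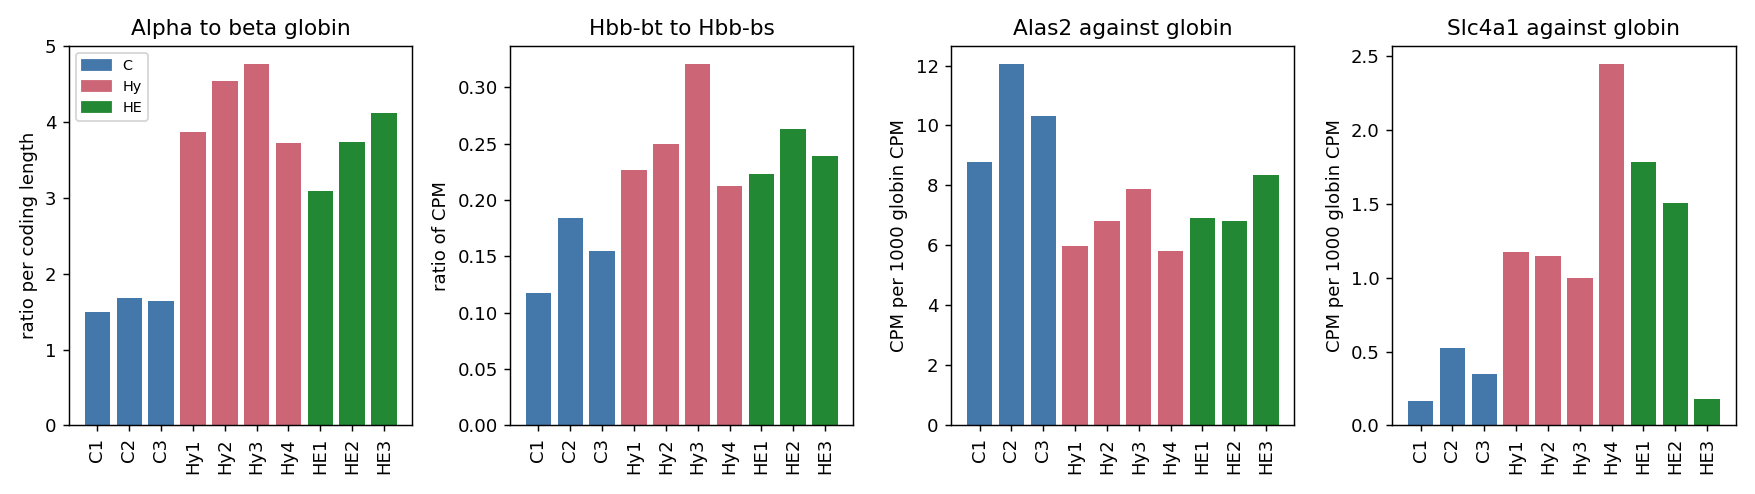
Ratios within each library, as bars from 0: alpha to beta globin per coding length, Hbb-bt to Hbb-bs, and Alas2 and Slc4a1 in CPM per 1000 CPM of summed adult globin. The C bars are the lowest in the first and second panels and the highest in the third, and in the fourth HE3 at 0.176 lies with the C libraries.

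Bpgm varied little outside 1 library. It was at 24.9, 35.7 and 36.6 CPM in C1 to C3, at 35.6, 35.9, 86.8 and 36.2 CPM in Hy1 to Hy4, and at 34.4, 26.7 and 28.6 CPM in HE1 to HE3. Hy3 lay far above the other 9 libraries, which stayed between 24.9 and 36.6 CPM, and Hy4, lowest in Hy for every other gene, was level with Hy1 and Hy2. All HE libraries lay below all Hy libraries. Across the 10 libraries, after taking away each group's mean, the correlation (Pearson) with the log2 summed globin level was 0.74 for Bpgm and 0.34 without Hy3, next to 0.996 and 0.992 for Alas2 and 0.802 and 0.701 for Slc4a1. The libraries share preparation and scaling, and these values are descriptions with no test.

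For Hy against C, which addresses the change in lung under hypoxia if the prefixes stand for the conditions in the series title, 1 of the 7 genes passed the test and no gene had groups without overlap. Hba-a2 rose from 3.81 ± 1.24 (SD, n = 3) to 40.0 ± 48.6 CPM (SD, n = 4), a log2 fold change of 3.38 ± 1.03 (SE) with an adjusted p of 0.0373 from edgeR's quasi-likelihood test. Hba-a1 (2.16 ± 1.04, adjusted p = 0.146) and Slc4a1 (3.24 ± 1.23, adjusted p = 0.0756) had positive estimates that missed the threshold of 0.05. The estimates were 1.59 for Hbb-bt (adjusted p = 0.323), 1.24 for Alas2 (0.419), 0.73 for Hbb-bs (0.612) and 0.58 for Bpgm (0.198). Over all 14766 genes tested, 26.1% were called in this comparison (15.1% higher), and 33.6% had groups that did not overlap. The members' share called, 1 of 7, is no larger than this background. With the replicate number as a block, 1746 genes instead of 3850 were called. No other library shares the replicate number of Hy4, so every block result given here also leaves Hy4 out of the comparison. The median log2 fold change of the 7 genes was 1.59 and that of all genes 0.03. The globin genes and Alas2 varied together, so the 7 estimates are not independent, and each was lower without Hy3, as given below.

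The call of Hba-a2 did not survive every removal of a library. Its adjusted p was 0.101 without C1, 0.12 without C2, 0.0958 without C3, 0.055 without Hy2, 0.0555 without Hy3 and 0.0503 without HE3, with log2 fold changes between 2.09 and 3.77 over the single removals. When the copies were summed within each pair, the estimate was 2.17 for alpha globin (adjusted p = 0.144) and 0.88 for Hbb-bs with Hbb-bt (adjusted p = 0.54). That beta sum, like the single estimates of Hbb-bs and Hbb-bt against C, leaves out Hbb-b1 and Hbb-b2, which held 54.1% of the beta counts of C1. With them included, the mean beta level was 2425 ± 2972 CPM (SD) in Hy and 1539 ± 289.1 in C. Hy3 carried the sign of some estimates, since without it Hbb-bs was at -0.54 and Alas2 at -0.40 on the log2 scale, and Hba-a1 at 0.71, Hba-a2 at 2.09, Slc4a1 at 2.02, Hbb-bt at 0.01 and Bpgm at 0.13. Without Hy4, Hba-a1 passed as well (2.56, adjusted p = 0.0487).

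For HE against Hy, which sets the exercised against the diseased animals if the prefixes are so read, all 7 genes had lower means in HE and none passed the test. The log2 fold changes were -1.85 ± 1.02 (SE) for Hba-a1, -1.90 ± 0.94 for Hba-a2, -1.33 ± 1.00 for Hbb-bs, -1.68 ± 1.14 for Hbb-bt, -1.80 ± 1.10 for Alas2, -1.40 ± 1.10 for Slc4a1 and -0.70 ± 0.32 for Bpgm. The adjusted p of edgeR's test was 1 for each. No gene at all (0%) was called in this comparison by edgeR, with 4.97% at an unadjusted p below 0.05 and 51 genes called by DESeq2, none of them among the 7. Bpgm had the smallest unadjusted p of the 7, 0.0529, and was the only one whose groups did not overlap (29.9 ± 4.00 CPM in HE, n = 3, and 48.6 ± 25.5 in Hy, n = 4) with HE lower; 4.51% of all genes did not overlap, 2.26% with HE lower. Without Hy3 the estimates were closer to 0, at -0.41 for Hba-a1, -0.09 for Hbb-bs, -0.18 for Alas2, -0.20 for Slc4a1 and -0.27 for Bpgm, and also for Hba-a2 (-0.62) and Hbb-bt (-0.13). Without HE1 they were farther from 0, at -2.58 for Hba-a1, -2.52 for Hba-a2, -2.31 for Hbb-bs, -2.56 for Hbb-bt, -2.48 for Alas2 and -3.18 for Slc4a1.

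For HE against C, 0 of the 7 genes passed edgeR's test, next to 20.4% of all genes, and DESeq2 also called 0 of the 7. The largest estimates were 1.84 for Slc4a1 (adjusted p = 0.306) and 1.48 for Hba-a2 (adjusted p = 0.32). Hba-a1 (0.32), Hbb-bt (-0.10), Bpgm (-0.12), Alas2 (-0.56) and Hbb-bs (-0.61) had adjusted p-values between 0.709 and 0.965. Hba-a2 was the only gene without overlap, higher in HE (10.7 ± 6.60 CPM) than in C (3.81 ± 1.24), and 51.6% of all genes did not overlap here, 26.7% with HE higher. Without HE3 the estimate of Slc4a1 was 2.39 and without HE1 it was 0.06.

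**Figure D4:**
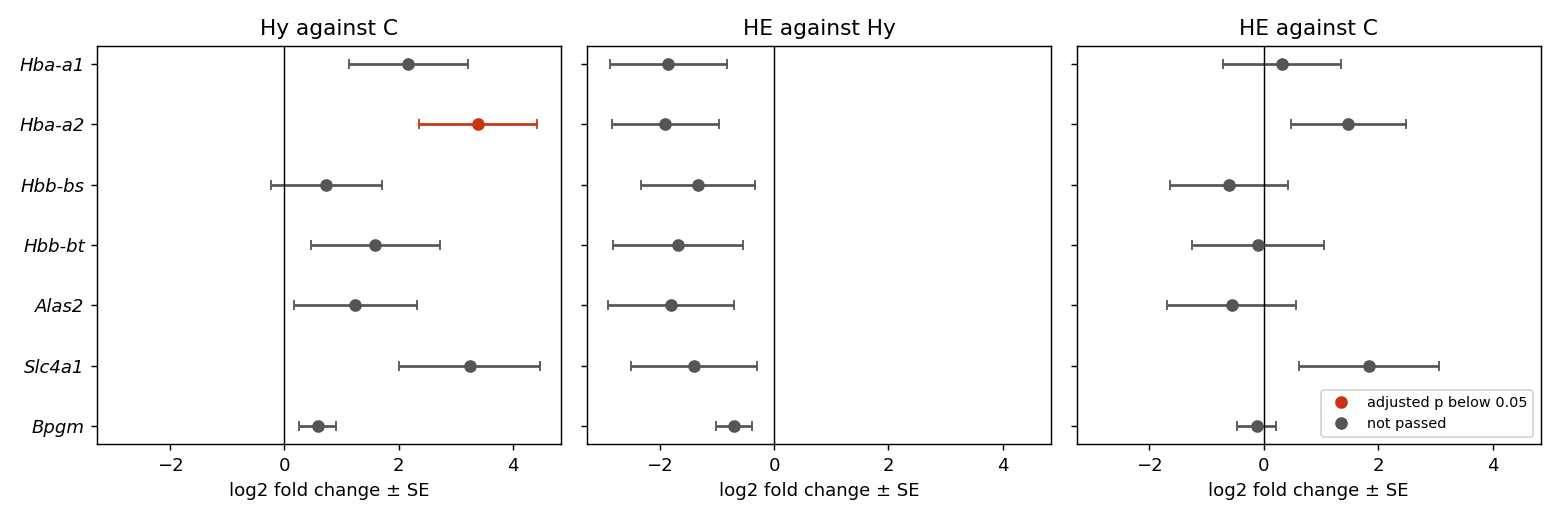
Log2 fold change with SE of each of the 7 genes in the 3 comparisons, from 1 edgeR fit of all 10 libraries. Hba-a2 in Hy against C, at 3.38, is the only point with an adjusted p below 0.05, and all 7 estimates of HE against Hy are below 0.

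By group mean the order was Hy, HE, C for Hba-a1, Hba-a2 and Slc4a1, and Hy, C, HE for Hbb-bs, Hbb-bt, Alas2 and Bpgm. Only Hy and C of Hba-a2 differed past the threshold, and no neighbours in these orders did.

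Other genes of the same pathways moved in both directions against C, and none passed in HE against Hy. In haem synthesis 15 genes were tested for Hy against C, of which 3 were higher, 2 lower and 10 did not pass, and the median log2 fold change was 0.13 (0.03 over all genes tested). Over all genes 26.1% were called in Hy against C, 15.1% as higher. The counts of called genes for Hy against C in this and the following lists are to be read against these shares. Those for HE against C are to be read against the 20.4% of all genes called there. Slc25a38, the mitochondrial glycine carrier of haem synthesis, was at 44.2 ± 5.72 CPM in Hy and 25.4 ± 2.55 in C (log2 fold change 0.80, adjusted p = 0.004). Fech, which inserts iron into the ring to complete haem, was at 112.1 CPM in Hy3 and at 46.8 to 58.9 CPM in the other 9 libraries. Against C, HE had 3 higher and 1 lower of the 15.

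Of the red cell membrane genes, 12 of 16 were tested, with 2 higher, 0 lower and 10 not passed in Hy against C (median log2 fold change 0.38). The 2 were Kel, a blood group antigen, and Dmtn, which binds actin. Kel was at 0 counts in all C libraries and at 6 to 19 counts in Hy, at least 4.35-fold higher against a floor of 3 counts per C library. Only Hy and HE libraries brought it past the filter on low counts. Its adjusted p of 0.0137 in edgeR's test is therefore not independent of that difference and adds no support to it. Kel stayed in the test in 8 of the 10 single removals, and with the replicate number as a block its adjusted p was 0.0532. Late erythroid genes gave 3 higher and 0 lower of 11 tested (median 0.26), with Ube2o, a ubiquitin enzyme that remodels the reticulocyte, at 65.7 ± 15.5 CPM in Hy and 37.8 ± 2.80 in C (0.80, adjusted p = 0.00892).

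Erythroid regulators gave 2 higher and 1 lower of 9 tested in Hy against C (median 0.65). Zfpm1, the cofactor of GATA1, was at 76.0 ± 19.5 CPM in Hy and 39.6 ± 2.19 in C (0.94, adjusted p = 0.00866), and Tfrc, the transferrin receptor, at 31.2 ± 6.71 and 53.7 ± 3.57 (-0.78, adjusted p = 0.00981). For the handling of haem and iron, 2 of 14 were higher, 0 lower and 12 not passed (median 0.24). Blvrb, which reduces biliverdin, was at 32.4 ± 9.10 CPM in Hy and 19.5 ± 1.82 in C (0.73, adjusted p = 0.0328). That call was lost with the replicate block (adjusted p = 0.1), with only the 2 groups (0.0577) and without C1 (0.0725), C2 (0.116), C3 (0.089), Hy1 (0.0658) or Hy4 (0.0808).

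In HE against C, 2 haem and iron genes were higher and 1 lower, the latter being Hmox1, which breaks haem down (40.5 ± 5.16 CPM in HE and 67.1 ± 1.56 in C, -0.73, adjusted p = 0.0412). The call of Hmox1 was lost without C1 (adjusted p = 0.1), C2 (0.0969), C3 (0.105), HE1 (0.0691), HE2 (0.139) or HE3 (0.0999). Among the bicarbonate transporters and carbonic anhydrases related to Slc4a1, 3 of 8 were higher and 2 lower in Hy against C (median -0.03). Slc4a3, an anion exchanger, was at 30.4 ± 2.91 CPM in Hy and 18.3 ± 2.23 in C (0.73, adjusted p = 0.00573), and Car8, a carbonic anhydrase relative without enzyme activity, at 55.4 ± 10.5 and 101.1 ± 14.0 (-0.87, adjusted p = 0.00623). The 6 neighbours of Bpgm in glycolysis gave 0 calls in Hy against C by edgeR, and 1, Eno1, was higher in HE against C. HE against C also gave 1 higher membrane gene (Dmtn), 2 higher late erythroid genes, 1 lower regulator (Tfrc) and 3 higher and 2 lower bicarbonate genes. Without C1, Hy4 and HE3, the libraries highest in heart transcripts, none of the 8 called genes given here with values for Hy against C passed, at adjusted p-values from 0.0523 (Slc4a3) to 0.173 (Blvrb), with 360 calls over all genes. Their log2 fold changes kept their signs with those libraries left out, at 0.73 for Slc25a38, 0.76 for Ube2o, 0.76 for Zfpm1, -0.62 for Tfrc, 0.64 for Blvrb, 0.76 for Slc4a3 and -0.79 for Car8, and fewer libraries entered that fit.

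Of the 13 other globin genes on the list, 8 had values, and 3 passed the filter, of which 0 were called in any comparison. The embryonic genes Hbb-bh1 and Hbb-y had 0 or 1 counts in every library, and Hbq1b had 0 to 19, the most in Hy3. Myoglobin, the oxygen-binding globin of heart and skeletal muscle (Mb), was at 140.9 CPM in C1, 101 in Hy4 and 100.2 in HE3 and at 0.0582 to 35.6 CPM elsewhere, and cytoglobin (Cygb) was at 24.9 to 63.3 CPM.

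Of the neutrophil markers 5 of 10 were higher in Hy than in C, and of the platelet markers 2 of 10, next to 15.1% of all genes, while the platelet sum stayed between 35.9 and 78.8 CPM in every library and was highest in Hy4, where the globins were lowest. None of these markers was at 0 in any library, and their part in the levels of the red cell genes was not tested.

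With the 7 genes themselves left out of the ranking, the 8 genes whose log2 level was most like the summed globin level, of 13178 ranked over the 10 libraries with group means taken away, included Hnrnpa3 (Pearson correlation 0.986), Chml (0.982), Pcdhgc5 (0.977), Cpsf6 (0.97), Rad50 (0.969), Zfp141 (0.966) and Exoc5 (0.966). The spread of these 7 was far smaller than that of the globins. Hnrnpa3, an RNA-binding protein, was at 392.3 to 405.4 CPM in C and ran from 173.6 CPM in Hy4 to 267.2 in Hy3 within Hy. Among the genes of the lists, the value was 0.91 for Ube2l6, a ubiquitin-conjugating enzyme, and -0.96, the lowest, for Abcb6, a porphyrin transporter. Of the list genes called in Hy against C and given above with values, Kel was at 0.73, Tfrc at 0.52 and Ube2o at 0.31. Zfpm1 was at -0.11, Slc25a38 at -0.25, Car8 at -0.31, Slc4a3 at -0.39 and Blvrb at -0.86. Most of these called genes thus did not follow the globins within groups. Correlations of this kind over 10 libraries of shared scaling are descriptions only.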

How the data were processed

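Polyadenylated RNA of mouse lung was sequenced in 10 libraries, per the labels' protocols, which do not state whether strand was kept, so reads of overlapping genes cannot be told apart. The authors deposited estimated counts per gene, not normalised. RSEM 1.2.12, Bowtie2 2.2.5, HISAT2 2.0.4 and DESeq 1.4.5 are listed without roles in the submitters' processing notes, with build GRCm38.p6. A RefSeq table of that build named 19150 of 19204 valued genes.

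Counts were rounded, and of the 17465 genes valued in every library 14766 passed filterByExpr. One edgeR 4.0.16 model (R 4.3.3) held all groups, with TMM factors and robust quasi-likelihood dispersion (7 residual degrees of freedom, biological coefficient of variation 26.9%). A gene was called at a Benjamini-Hochberg adjusted p below 0.05 over all tested genes. The script was tested on simulated data. Alternatives used RLE factors, other filters, DESeq2 1.42.0, single pairs of groups, summed copies, a replicate block and the removal of libraries.

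The 7 genes and the lists were chosen with earlier results of these data known. From each list the called genes with the smallest p in either direction are named, at most 3 and mostly 1 here. Fech, Ube2l6, Abcb6 and the embryonic globins were chosen after their values were seen. Likeness was ranked over genes of at least 2 CPM on average, on log2 values with a pseudocount of 0.1 CPM. Some genes of the lists are not reported here.

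Equal replicate numbers in Hy and C deviated together (correlations over genes of 0.12, 0.25 and 0.13, each above 0.1), so their block result is given where it changes a call. Hy4 has no library of equal replicate number in C or HE, so the block fitted it exactly and took it out of the comparison. The correlations of HE with Hy ran from -0.04 to 0.06 and those of HE with C from -0.26 to 0.19, so not all passed 0.1. Libraries of unequal replicate number were not compared, so these values do not show that samples were paired.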

Additional observations from a re-analysis of the deposited data

Results flagged for a closer look

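Of 22 genes examined, 2 had a Hy library far from the other 3 by the gap of that library to its nearest neighbour, relative to the range of the group (Dixon's test at the 95% level). Chance gives such a gap in about 1 of 20 groups, so 2 of 22 is not far above that rate, and genes of the same library are not independent. Both were in Hy3. Bpgm was at 86.8 CPM there, with a gap of 0.989 of the range. Fech, the ferrochelatase gene, was at 112.1 CPM, with a gap of 0.902 of the range. The groups of 3 libraries were not examined in this way.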

How the results depend on the processing

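The number of the 7 genes called in Hy against C was 1 (Hba-a2). It was 0 with no filter on low counts (adjusted p of Hba-a2 0.0608), 0 with only the 2 groups compared (0.064) and 0 with the copies summed, and 2 with DESeq2, where Slc4a1 passed too (0.0255). It was 0 as well with Hbb-b1 and Hbb-b2 added to the sum and without C1, Hy4 and HE3 together (0.0831), both chosen after seeing the data. Leaving out 1 library gave 0 to 2. RLE factors and a filter of 1 CPM in 3 libraries left it at 1. In HE against Hy and in HE against C it was 0 under every alternative run.

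With the replicate number as a block, Hba-a2 again passed edgeR's test (3.60, adjusted p = 0.0242). That fit left out of the comparison Hy4, at 2.80 CPM the only Hy library that lay among C for Hba-a2. It therefore does not show that the call holds under a block with Hy4 kept. In the same fit Hbb-bt in HE against C turned from -0.10 to 0.07 on the log2 scale. Over the single removals Hbb-bt in HE against C ran from -0.97 to 0.35, Hba-a1 in HE against C from -0.42 to 0.67, Hbb-bs in Hy against C from -0.54 to 1.12 and Alas2 in Hy against C from -0.40 to 1.64. The removals that turned these signs use fewer samples; beyond that the cause was not tested.

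Over all genes, single removals gave 1680 to 5973 calls in Hy against C (3850 with all libraries), 1014 to 4711 in HE against C (3013) and 0 to 6 in HE against Hy. Without C1, Hy4 and HE3 there were 360 and 498 calls against C. With only the 2 groups, HE against C gave 5408. Depth limits what can be said of Slc4a1 and Kel, whose lowest libraries hold 9 counts or fewer, and of the embryonic globins.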
